A study of Mus musculus with 12 samples.

Results

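The 10 genes followed here through spinal cord injury (SCI) are ones that uninjured astrocytes use for their everyday functions: Slc1a2, Slc1a3, Glul, Slc6a11, Aqp4, Kcnj10, Aldoc, Acsbg1, Aldh1l1 and Fgfr3. They were chosen by name as homeostatic astrocyte genes, with no threshold on their values, and all 10 of 10 were among the 16389 genes of the table. The 12 libraries were made from the polyadenylated RNA of green cells sorted from the thoracic cord of adult male mice of the Aldh1l1-EGFP transgenic line on a Swiss Webster background, in which eGFP is driven by regulatory sequence of Aldh1l1, itself one of the 10 genes. Mice aged 12 weeks received a lateral hemisection (HS) or a full transection (FT) at the ninth thoracic level, and a 1 cm segment around the lesion was taken. The HS 1 week group had 3 libraries, HS 2 weeks had 2, FT 1 week had 1, FT 2 weeks had 3, and the non-injured (NI) group, from which the matching segment was taken, had 3. The weeks are the time after surgery. All groups, NI included, carried the transgene, and the study used more animals than libraries in each group, although how animals were divided among libraries is not given in the sources used here. FT 1 week and HS 2 weeks have fewer libraries here than the number of replicates the methods give for each group. The question was how SCI of either severity, at either time, changed the transcripts of these cells.

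Astrocytes take up the glutamate and GABA that neurons release, turn glutamate into glutamine, and keep extracellular potassium and water in balance, largely through channels on the endfeet that wrap blood vessels. They also carry a distinctive set of metabolic enzymes. These functions are known to be altered in many astrocytes that react to injury, and the genes behind them are widely used as markers of the cell type.

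All 10 transcripts were detected in every library, but each varied more, in folds, between replicates of 1 group than between group means. A set of 8 (Slc1a2, Slc1a3, Slc6a11, Aqp4, Aldoc, Acsbg1, Aldh1l1 and Fgfr3) had their 4 lowest values in the same 4 libraries: HS 1 week replicate 3, HS 2 weeks replicate 1, the only FT 1 week library and NI replicate 3. Glul did not follow them, and Kcnj10 shared 3 of the 4. None of the 10 genes passed the test in any of the 10 comparisons made. Values below are normalized counts, that is, reads of a gene divided by 1 factor per library. They do not correct for gene length, and 1 read corresponded to 0.0612 to 0.134 normalized counts. The libraries held 8270643 to 15562378 reads in genes, and the FT 1 week library was the shallowest.

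The libraries also held transcripts of other cell types. The sort kept eGFP-positive cells, a gate meant to remove those types, and whole cells of other types cannot be told apart here from RNA carried over with the sorted cells. The 11 oligodendrocyte genes listed, among them Mbp and Mog, summed to 19620 to 45890 normalized counts per library, against 1948 to 7929 for the 10 homeostatic genes together. The 17 microglia and macrophage genes summed to 13660 in HS 1 week replicate 3, 12860 in HS 2 weeks replicate 1, 10130 in the FT 1 week library, and 8004 and 5941 in NI replicates 3 and 2. The other 7 libraries had sums of 866.5 (NI replicate 1) to 3639 (HS 1 week replicate 1). None of these 17 genes was at 0 in any library. The 4 libraries where the 8 homeostatic genes were lowest were therefore the 4 with the highest microglial sums. The part of these other transcripts in the levels was not tested. In sorted pools, fewer astrocytes among the cells and less RNA of a gene per astrocyte cannot be told apart.

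**Figure D1:**
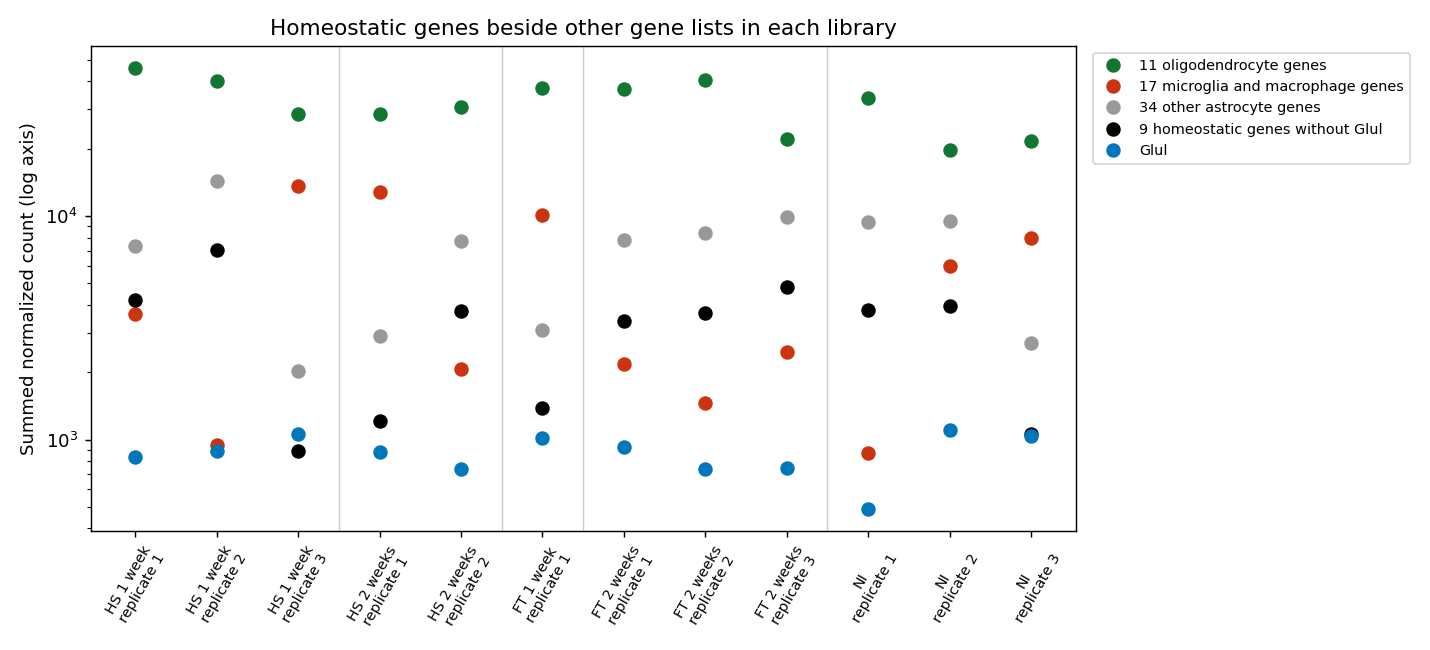
Summed normalized count (log axis) in each of the 12 libraries, in the order HS 1 week, HS 2 weeks, FT 1 week, FT 2 weeks and NI, for 11 oligodendrocyte genes, 17 microglia and macrophage genes, 34 other astrocyte genes, the 9 homeostatic genes without Glul, and Glul alone. Grey lines separate the groups. The 9 genes and the other astrocyte genes are lowest in the 4 libraries in which the microglial genes are highest (13660, 12860, 10130 and 8004), and Glul is not.

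The glutamate transporter Slc1a2 (GLT-1, on chromosome 2) performs most of the glutamate uptake in the forebrain. Its level was 600.3, 819 and 24.2 normalized counts in HS 1 week replicates 1, 2 and 3, 68.3 and 571 in HS 2 weeks replicates 1 and 2, 67.2 in the FT 1 week library and 416, 521 and 843 in the FT 2 weeks replicates, against 489, 609 and 116 in NI replicates 1, 2 and 3. The low libraries thus lay in 4 different groups, and the replicates of HS 1 week differed more widely than any pair of group means. The highest library held 34.9 times the lowest. The FT 1 week library lay below every NI library, and HS 1 week and HS 2 weeks overlapped NI.

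The second glial glutamate transporter, Slc1a3 (GLAST, chromosome 15), varied far less, 4.04-fold from lowest to highest. Normalized counts of Slc1a3 were 263, 287 and 135.6 in HS 1 week, 147 and 257.5 in HS 2 weeks, 162 in the FT 1 week library and 306, 388.5 and 243.4 in FT 2 weeks, against 243 (242.6), 203 and 96.2 in NI. All 3 FT 2 weeks libraries lay above the 3 NI libraries, the lowest of them by less than 1 normalized count. The ratio of Slc1a3 to Slc1a2 was 5.61 in HS 1 week replicate 3, 2.16 in HS 2 weeks replicate 1 and 2.42 in the FT 1 week library, and 0.829 in NI replicate 3. In the other libraries it ran from 0.289 in FT 2 weeks replicate 3 to 0.746 in FT 2 weeks replicate 2. Slc1a3 thus had more reads than Slc1a2 in 3 libraries, all of them injured. As a ratio of counts this depends on transcript length, which differs between the 2 genes but not between libraries. Per kb of the longest annotated transcript, the order differed. Slc1a3 then lay below Slc1a2 only in HS 1 week replicate 2, FT 2 weeks replicate 3 and NI replicate 2. Elsewhere Slc1a3 lay above, as in NI replicate 1 (54.69 against 42.14 per kb). The order in reads was therefore not a reversal particular to injured libraries.

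Glul, glutamine synthetase, which converts the glutamate taken up into glutamine, was the exception among the 10. It had 836, 890.4 and 1056 normalized counts in HS 1 week, 882 and 738 in HS 2 weeks, 1015 in the FT 1 week library and 925, 738 and 743 in FT 2 weeks, against 489, 1099 and 1037 in NI replicates 1, 2 and 3. Its range over the 12 libraries was 2.25-fold. The 3 highest libraries were NI replicate 2, HS 1 week replicate 3 and NI replicate 3, of which the last 2 were among the lowest for Slc1a2, and the lowest was NI replicate 1. Glul is known to be expressed by oligodendrocytes as well as astrocytes, as is Kcnj10.

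Slc6a11 (GAT-3), which clears GABA into astrocytes, varied most. Its normalized counts were 71.8, 458 and 3.06 in HS 1 week, 22.7 and 148 in HS 2 weeks, 10.3 in the FT 1 week library and 89.5, 71.2 and 167 in FT 2 weeks, against 129, 308 and 33.0 in NI. The lowest value, in HS 1 week replicate 3, rested on 50 reads and the FT 1 week value on 77 reads. The highest library held 150 times the lowest, and both were HS 1 week libraries.

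Of the members that handle water and potassium, Aqp4 is the water channel of the endfeet and Kcnj10 (Kir4.1) the inward rectifier that takes up potassium. Aqp4, on chromosome 18, had 802, 817 and 17.7 normalized counts in HS 1 week, 57.9 and 498 in HS 2 weeks, 96.6 in the FT 1 week library and 440.0, 481 and 658 in FT 2 weeks, against 306.5, 439.5 and 46.0 in NI. All 3 FT 2 weeks libraries were above the 3 NI libraries, the closest pair being 440.0 and 439.5. Kcnj10 was the steadiest of the 10. It had 667, 858 and 423 normalized counts in HS 1 week, 496 and 649 in HS 2 weeks, 546 in the FT 1 week library and 634, 558 and 544 in FT 2 weeks, against 550.4, 620.2 and 419 in NI. Its range of 2.05-fold compares with 46.1-fold for Aqp4, although both proteins sit on the same endfeet.

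**Figure D2:**
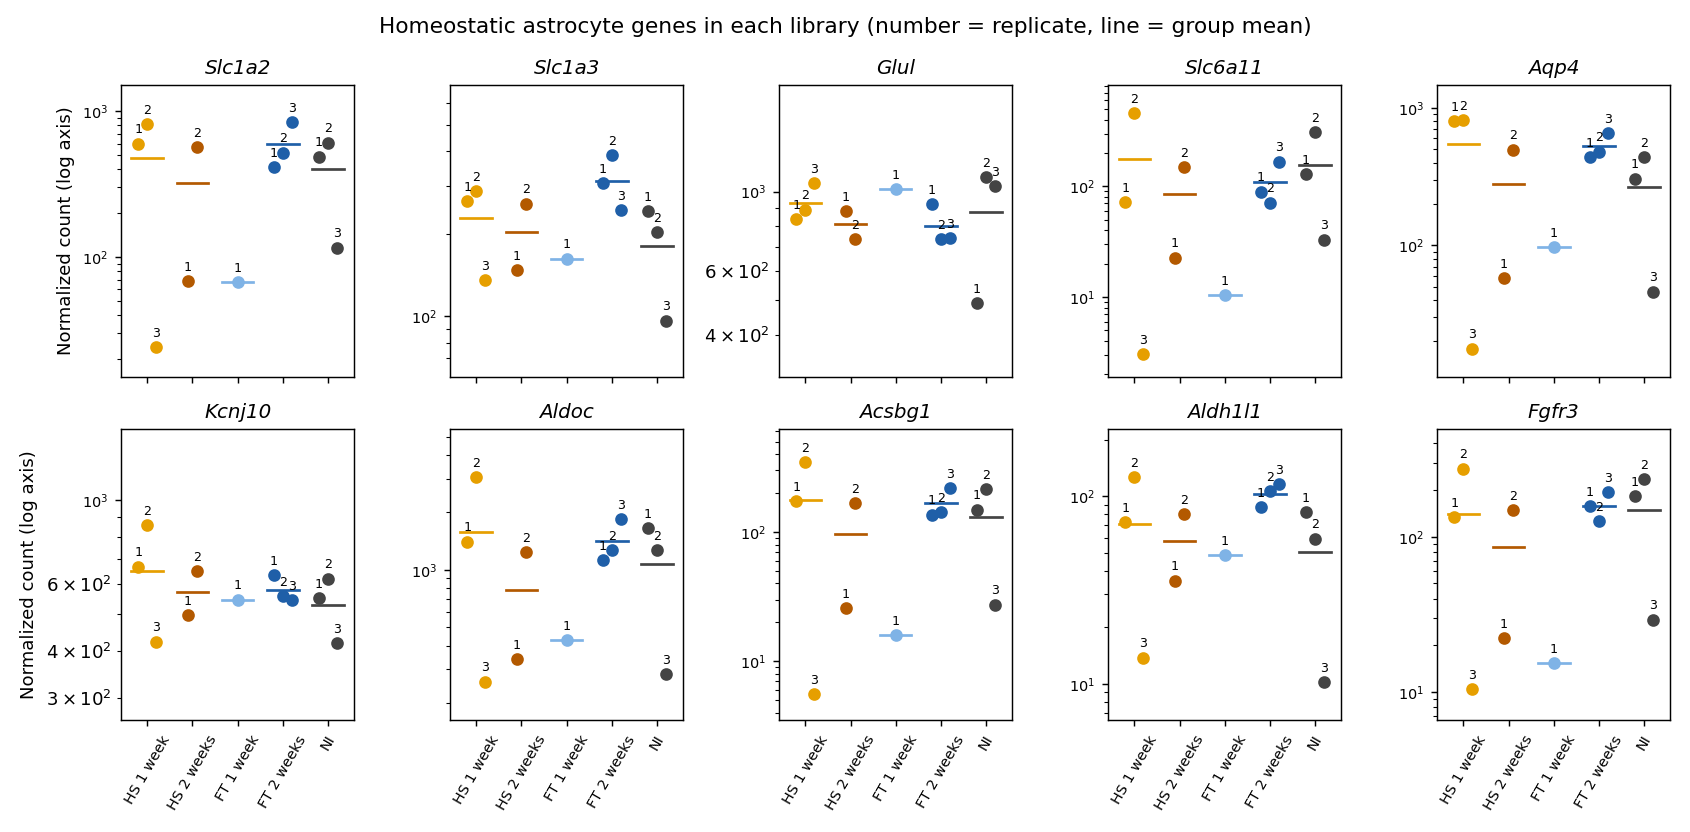
Normalized count (log axis, with its own range in each panel) of the 10 homeostatic genes in HS 1 week, HS 2 weeks, FT 1 week, FT 2 weeks and NI. Each point is a library with its replicate number, and the line is the group mean. HS 1 week replicate 3, HS 2 weeks replicate 1, FT 1 week and NI replicate 3 are the lowest 4 points in 8 panels, while Glul and Kcnj10 span only 2.25-fold and 2.05-fold.

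The 3 metabolic enzymes had their 4 lowest values in the same libraries as Slc1a2. Aldoc, the brain form of the glycolytic enzyme aldolase, had 1405, 3049 and 259 normalized counts in HS 1 week, 338 and 1235 in HS 2 weeks, 428 in the FT 1 week library and 1124, 1272 and 1837 in FT 2 weeks, against 1648, 1265 and 282 in NI. Acsbg1, which activates long-chain fatty acids by joining them to coenzyme A, had 174, 349 and 5.57 in HS 1 week, 25.8 and 167 in HS 2 weeks, 15.85 in the FT 1 week library and 136, 143 and 220.0 in FT 2 weeks, against 149, 215 and 27.4 in NI. The range was 11.8-fold for Aldoc and 62.8-fold for Acsbg1.

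Aldh1l1 is a cytosolic folate enzyme, and its regulatory sequence drives the eGFP by which the cells were sorted. It had 73.0, 127 and 13.8 normalized counts in HS 1 week, 35.4 and 80.4 in HS 2 weeks, 48.5 in the FT 1 week library and 87.35, 106 and 116 in FT 2 weeks, against 82.3, 59.4 and 10.2 in NI. Every FT 2 weeks library was above every NI library. Among cells sorted on eGFP protein the Aldh1l1 transcript ranged 12.4-fold. Because the transgene and the endogenous gene share regulatory sequence, Aldh1l1 is no independent check of the sort.

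Fgfr3, a receptor for fibroblast growth factors that is found on resting astrocytes, had 134, 275 and 10.5 normalized counts in HS 1 week, 22.2 and 149 in HS 2 weeks, 15.3 in the FT 1 week library and 157, 126 and 193 in FT 2 weeks, against 182, 236 and 29.3 in NI. The FT 1 week library was below every NI library, and HS 1 week, HS 2 weeks and FT 2 weeks overlapped NI. Its range was 26.1-fold.

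Divided by the length of the longest annotated transcript, Aldoc was the most abundant of the 10, with a median of 448.5 normalized counts per kb over the 12 libraries, followed by Glul at 317.5 and Kcnj10 at 102.5. Aqp4 followed at 87.0, Slc1a3 at 54.8, Acsbg1 at 50.8, Slc1a2 at 43.5, Fgfr3 at 33.3 and Slc6a11 at 19.5 per kb, with Aldh1l1 lowest at 18.4. Glul (175.3 to 393.6 per kb) was above Kcnj10 (77.4 to 158.6 per kb) in every library, while the ranges of all other neighbours in this order overlapped. In the NI libraries the medians were 454 per kb for Aldoc and 372 for Glul, and Aldh1l1 was again lowest at 14.2. Within a library the mix shifted with the low libraries. Glul made up 54.2% of the summed counts of the 10 genes in HS 1 week replicate 3, 42.1% in HS 2 weeks replicate 1, 42.2% in the FT 1 week library and 49.5% in NI replicate 3, and 11.2% to 21.7% in the others. Slc1a2 made up 1.24% to 15.2% and Aldoc 13.3% to 38.6%.

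**Figure D3:**
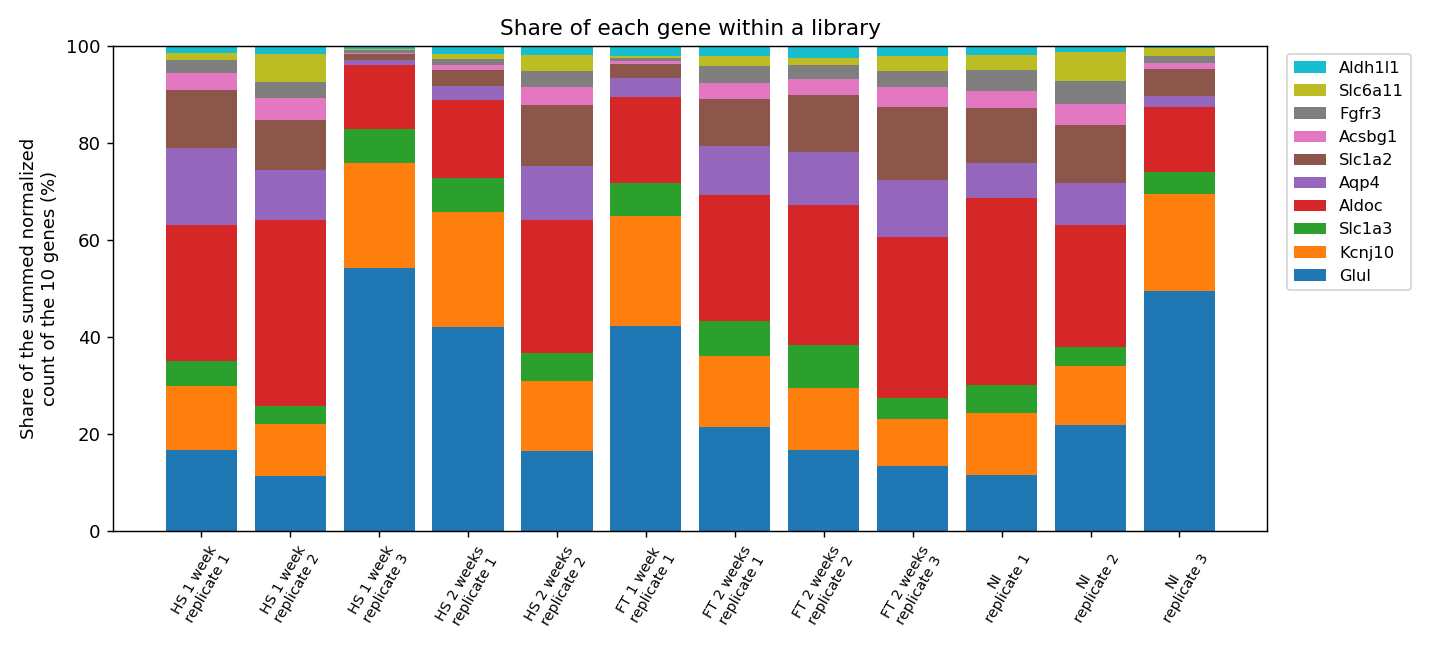
Share (%) of each of the 10 homeostatic genes in their summed normalized count, 1 bar per library in the order HS 1 week, HS 2 weeks, FT 1 week, FT 2 weeks and NI. Glul (lowest segment) takes 54.2%, 42.1%, 42.2% and 49.5% in the 4 low libraries and at most 21.7% in the rest.

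The promoters of 3 members are printed here because Slc1a2 and Acsbg1 were the pair of members whose levels over the 12 libraries were most alike, with a Pearson r of 0.991 on the log2 scale as a description, while Glul ran against the other 9 (r of -0.524 to -0.166). Both values are over libraries that include the 4 low ones, and each library is shared by all genes. Each line holds 250 bases before and 50 after a RefSeq start on GRCm38.p6, and the Slc1a2 window lies inside the longer gene model of the annotation used for lengths. Capitals mark matches to the motifs searched on both strands.
Slc1a2 (chr2:102706188-102706487, plus strand): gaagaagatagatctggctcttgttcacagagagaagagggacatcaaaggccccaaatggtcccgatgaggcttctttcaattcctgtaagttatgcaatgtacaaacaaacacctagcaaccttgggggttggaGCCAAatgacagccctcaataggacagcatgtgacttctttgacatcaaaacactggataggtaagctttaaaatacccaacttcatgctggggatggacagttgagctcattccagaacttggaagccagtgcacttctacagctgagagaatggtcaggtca
Acsbg1 (chr9:54661836-54662135, minus strand): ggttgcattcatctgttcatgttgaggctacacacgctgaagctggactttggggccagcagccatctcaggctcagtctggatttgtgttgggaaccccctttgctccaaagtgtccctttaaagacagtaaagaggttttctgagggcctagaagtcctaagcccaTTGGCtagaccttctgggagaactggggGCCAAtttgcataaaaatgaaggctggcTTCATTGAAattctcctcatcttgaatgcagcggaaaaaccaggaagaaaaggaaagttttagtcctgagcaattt
Glul (chr1:153899679-153899978, plus strand): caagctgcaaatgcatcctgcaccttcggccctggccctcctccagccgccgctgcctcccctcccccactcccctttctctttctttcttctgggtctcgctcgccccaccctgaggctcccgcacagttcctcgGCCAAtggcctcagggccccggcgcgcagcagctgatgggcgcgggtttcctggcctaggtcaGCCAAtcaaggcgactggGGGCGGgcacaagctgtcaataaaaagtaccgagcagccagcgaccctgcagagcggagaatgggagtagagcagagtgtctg
Searches were for TTCNNNGAA, the STAT palindrome, and for TTGGC, the core of the nuclear factor I site. The full nuclear factor I palindrome, which holds that core at either end, was also searched. A Sox-type motif (ACAATG) came next, and an Sp-type box (GGGCGG) was the last. Slc1a2 had 1 nuclear factor I core, Acsbg1 had 2 with 1 STAT palindrome, and Glul had 2 with 1 Sp-type box. The search covered 9 of the 10 members, in 11 windows, and left out Aqp4. The STAT palindrome was in 3 windows (Acsbg1, Aldoc and Slc1a3), beside 8.3% of all 32851 promoters searched. The nuclear factor I core was in 5 (46.7% of all) and the Sp-type box in 8 (35.7% of all), and no window held the nuclear factor I palindrome (0.0365% of all) or the Sox-type motif (12.6% of all). The windows had 64.3% GC in Glul, 45.7% in Slc1a2 and 47.0% in Acsbg1, beside a median of 52.7% over all promoters. These matches are sequence description only.

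The groups were then compared by limma-trend on log2(normalized count + 1) over all 12 libraries, with a call at a Benjamini-Hochberg adjusted p under 0.05 over 16388 genes with a 2-fold or larger change. The comparisons of injured groups with NI share the NI libraries. The FT 1 week group has 1 library, which is taken to vary like the others. No member was called against NI in HS 1 week (0.0061% of all genes called), in HS 2 weeks (0.0122%), in FT 1 week (0.452%), in FT 2 weeks (0.0427%) or in the mean of the 4 injured groups (0.293%). None was called for FT against HS at the earlier time (0.348% of all genes) or the later one (0%). None was called for the later against the earlier time in HS (0%) or FT (0.384%), or for the difference between those time effects (0.0854%).

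At an unadjusted p under 0.05 the count of members by limma-trend was also 0 in each of these comparisons. All genes had 7.66%, 7.49%, 11.2%, 10.8% and 13.9% there for HS 1 week, HS 2 weeks, FT 1 week, FT 2 weeks and the injured mean against NI. They had 5.64% and 2.26% for FT against HS at the earlier and the later time, 1.62% and 9.17% for the later against the earlier time in HS and in FT, and 7.04% for the difference of time effects. The edgeR likelihood ratio test, run on the recovered reads, likewise called no member. It called 0.372%, 0.757%, 1.81%, 2.22% and 4.09% of all genes in the same 5 comparisons with NI, 0.696% and 0% for FT against HS, 0% and 1.31% between times, and 0.696% for the difference of time effects. With this test some members had an unadjusted p under 0.05. There were 3 of 10 in FT 1 week against NI, beside 10.6% of all genes, and 4 of 10 in FT 1 week against HS 1 week, beside 6.15%. There were 4 of 10 in FT 2 weeks against FT 1 week, beside 10.1%, and 5 of 10 for the difference of time effects, beside 7.91%. All 4 of these comparisons rest on the single FT 1 week library. The other 6 had 0 of 10 members, beside 5.94% (HS 1 week), 7.26% (HS 2 weeks), 11.1% (FT 2 weeks) and 13.2% (injured mean) of all genes against NI, 3.96% for FT against HS at the later time and 2.15% between times in HS.

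No member separated HS 1 week from NI without overlap, while 7.31% of all genes lay wholly above and 5.02% wholly below. The same was true of HS 2 weeks, where 12.9% of all genes lay above and 11.6% below. No member separated all 9 injured libraries from NI, where 1.97% of all genes lay above and 0.995% below.

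**Figure D4:**
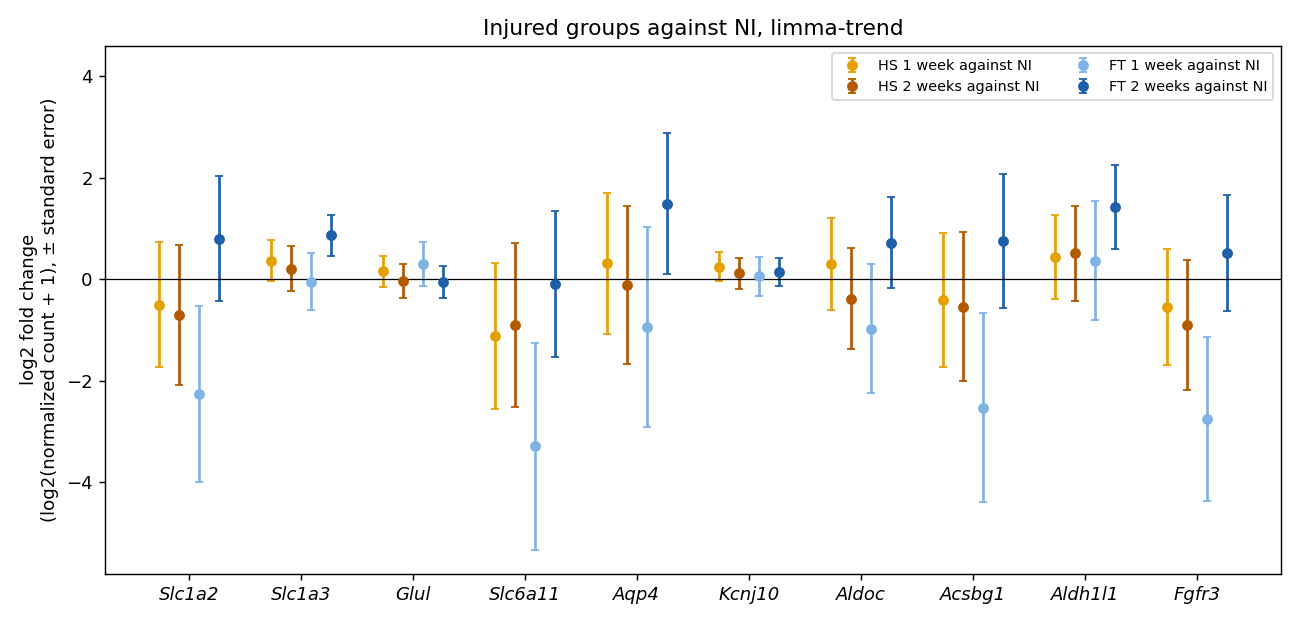
log2 fold change (log2(normalized count + 1), limma-trend) of the 10 homeostatic genes in HS 1 week, HS 2 weeks, FT 1 week and FT 2 weeks against NI. Points are estimates and bars are ± 1 standard error. Bars for Kcnj10 and Glul are short, and those for Slc6a11, Slc1a2, Acsbg1, Fgfr3 and Aqp4 are long, and no estimate passes the test.

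In HS 1 week the 10 log2 fold changes against NI had a median of 0.21, beside -0.03 over all genes tested, and 6 were above 0. In HS 2 weeks the median was -0.24 beside -0.02, with 3 above 0. For Slc1a2 in HS 1 week the 95% interval of the log2 fold change was -3.22 to 2.22, and for Aqp4 it was -2.75 to 3.39. These intervals take in changes of several-fold in either direction. For Glul the interval was -0.51 to 0.84, and for Kcnj10 it was -0.36 to 0.86, so changes were bounded more closely for those 2 genes.

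At 1 week after FT the single library gave the lowest estimates. The log2 fold change against NI was -3.29 ± 2.04 (SE) for Slc6a11 (adjusted p = 0.592, limma), -2.75 ± 1.61 for Fgfr3 (0.567), -2.53 ± 1.86 for Acsbg1 (0.664), -2.26 ± 1.74 for Slc1a2 (0.683) and -0.97 ± 1.27 for Aldoc (0.829). The first 4 were below all 3 NI libraries, as were 30.1% of all genes, while no member was above them (27.2% of all genes). The median over the 10 members was -0.95, beside -0.02 for all genes. For the other 6 members NI held a library below FT 1 week. All 5 estimates move with the NI libraries. Without NI replicate 3 they were -4.14 for Slc6a11, -3.68 for Fgfr3, -3.42 for Acsbg1, -3.00 for Slc1a2 and -1.75 for Aldoc. Without NI replicate 2 they were -2.55 for Slc6a11, -2.19 for Fgfr3, -1.95 for Acsbg1, -1.81 for Slc1a2 and -0.67 for Aldoc, and without NI replicate 1 Aldoc was at -0.48. None was called. The FT 1 week library also had a microglial sum of 10130 normalized counts, against 866.5 to 8004 in NI, and its part in these values was not tested.

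At 2 weeks after FT most estimates were above 0. The median over the members was 0.73, beside -0.01 for all genes, with 8 of 10 above 0. Aqp4, Aldh1l1 and Slc1a3 were above NI in all 3 libraries, beside 6.92% of all genes, and no member was below (7.99%). Their log2 fold changes were 1.49 ± 1.39 (SE) for Aqp4 (adjusted p = 0.723), 1.43 ± 0.83 for Aldh1l1 (0.562) and 0.87 ± 0.40 for Slc1a3 (0.468, limma). These estimates rest on NI replicate 3. Without it they were 0.50 for Aqp4, 0.54 for Aldh1l1 and 0.47 for Slc1a3. The FT 2 weeks libraries had microglial sums of 1462 to 2468 normalized counts, against 866.5 to 8004 in NI. Their 8 pericyte and fibroblast genes summed to 6002 to 11580, against 458.9 to 7005 in NI. Neither was tested as a part of the difference.

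Between 1 and 2 weeks after FT the median log2 difference was 2.05 over the members, beside -0.01 over all genes, and 9 of 10 were above 0. When only the 4 libraries of these 2 groups entered the fit, 7 of the 10 members were called higher at 2 weeks (Acsbg1, Aldh1l1, Aldoc, Aqp4, Fgfr3, Slc1a2 and Slc6a11), beside 5.06% of all genes called higher. That fit takes its spread from the 3 FT 2 weeks libraries, which were close to each other, and not from HS or NI, where the replicates were far apart. The FT 1 week library was 1 of the 4 low libraries. The same 7 genes were not called when all 12 libraries shared the spread.

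Over the mean of the 4 injured groups, Kcnj10 had a log2 fold change of 0.14 ± 0.23 against NI (adjusted p = 0.839) and Glul 0.10 ± 0.26 (0.908, limma). The 95% intervals in folds were 0.776 to 1.57 for Kcnj10 and 0.722 to 1.59 for Glul. Either sign changed with 1 library or with scaling to equal totals, which alone lowered the median log2 fold change of all genes against NI by 0.17.

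Other genes of the same pathways, from lists assembled for this purpose, were set beside the members. Of 34 other astrocyte genes found (of 36), 28 had the same 4 lowest libraries, which is 82.4%, beside 3.55% of all 16388 genes. The share was 4 of 14 for the other glutamate and glutamine genes, 3 of 7 for GABA uptake and breakdown, 5 of 14 for potassium and water handling, 5 of 15 for glycolysis and glycogen, and 0 of 13 for folate one-carbon enzymes. It was 0 of 17 for microglia and 0 of 11 for oligodendrocyte genes. The 4 libraries were picked from the members, so these shares only describe the pattern. The other astrocyte genes summed to 7369, 14400 and 2028 in HS 1 week, 2907 and 7732 in HS 2 weeks, 3096 in the FT 1 week library and 7775, 8350 and 9849 in FT 2 weeks, against 9377, 9534 and 2711 in NI. Their median log2 fold change against NI was -0.15 in HS 1 week, -0.63 in HS 2 weeks, -1.99 in FT 1 week and 0.53 in FT 2 weeks. None was called in any comparison with NI by limma. The likelihood ratio test called Cspg5 lower in the injured mean (log2 fold change -1.2, adjusted p = 0.0102), beside 4.09% of all genes called. It also called Fabp7 for the difference of time effects (log2 difference 3.06), beside 0.696% of all genes. That comparison rests on the single FT 1 week library. The 8 genes, outside the members, whose log2 levels were most like the members' mean standardized level over the 12 libraries were Lrig1 (r = 0.987), Gjb6 (0.979), Agt (0.974), Agxt2l1 (0.972), Slc41a1 (0.969), Slc2a4 (0.969), Slc4a4 (0.968) and Gabrg1 (0.966), out of 11265 genes considered. These r values are over libraries that include the 4 low ones and are given as a description.

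Relatives of 2 members did pass the test. Aldh1l2, the mitochondrial counterpart of Aldh1l1, was the only 1 of 13 folate genes called by limma. It had 143 (142.8), 90.7 and 59.6 normalized counts in HS 1 week, 145 and 154 in HS 2 weeks, 139.5 in the FT 1 week library and 122, 79.8 and 76.8 in FT 2 weeks, against 32.9, 23.1 and 18.4 in NI. No injured library was as low as any of the NI libraries, a separation seen in 1.97% of all genes. The log2 fold change of the injured mean was 2.21 ± 0.27 (SE, adjusted p = 0.00969, limma), with a 95% interval of 3.05-fold to 6.97-fold. Without NI replicate 2 or NI replicate 3 the adjusted p became 0.0643 and 0.0824. The call at 1 week after FT (2.48 ± 0.46, adjusted p = 0.0492) was kept without HS 1 week replicate 1, HS 1 week replicate 3 or NI replicate 1, and was lost without any other HS, FT 2 weeks or NI library (adjusted p up to 0.131) and with only the compared groups (0.224). The likelihood ratio test called Aldh1l2 in all 4 injured groups, with log2 fold changes of 1.98, 2.59, 2.49 and 1.91 at HS 1 week, HS 2 weeks, FT 1 week and FT 2 weeks. Aldh1l1 itself, in the same libraries, moved with the other astrocyte genes and overlapped NI in every group but FT 2 weeks.

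Among the relatives of Fgfr3, Fgfr4, another receptor of the family, was called by limma in the injured mean but in no single injured group. It had 11.8, 14.5 and 7.58 normalized counts in HS 1 week, 6.69 and 13.5 in HS 2 weeks, 10.3 in the FT 1 week library and 11.5, 6.64 and 11.3 in FT 2 weeks, against 3.14, 1.15 and 2.45 in NI. The NI values rested on only 40, 18 and 34 reads, and those of the injured libraries on 57 to 184. Every injured library was above NI, a separation seen in 1.97% of all genes. The likelihood ratio test called Fgfr4 in each injured group, with log2 fold changes of 2.33 in HS 1 week, 2.17 in HS 2 weeks, 2.21 in FT 1 week and 2.13 in FT 2 weeks. By limma the log2 fold change of the injured mean was 1.82 ± 0.31 (SE, adjusted p = 0.045, limma). The call was kept without HS 1 week replicate 3, HS 2 weeks replicate 1 or NI replicate 1 and was lost without any other library (adjusted p up to 0.257), and in the edgeR quasi-likelihood test (0.0705). Without the 5 libraries with the highest microglial sums, an alternative chosen after seeing the data, Fgfr4 was at 1.64. That fit kept NI replicate 1 as the only NI library, so it cannot decide whether the call holds. Fgfr2 averaged 222 ± 22.8 in the 9 injured libraries and 211 ± 45.7 in the 3 NI libraries (SD), and Fgfr1 71.1 ± 34.3 and 64.3 ± 52.9.

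None of the 14 glutamate and glutamine genes, 7 GABA genes, 14 potassium and water genes, 15 glycolysis genes and 5 acyl-CoA synthetase genes was called against NI by limma, in any injured group. Their median log2 fold changes at 1 week after FT were -0.29, -0.85, -1.12, -0.12 and 0.32, beside -0.02 for all genes. At 2 weeks after FT they were 0.05, 0.19, -0.13, 0.21 and -0.57, beside -0.01. The likelihood ratio test called 2 of these genes lower in the injured mean against NI, beside 4.09% of all genes called. They were Grm5 of the glutamate list (log2 fold change -1.43, adjusted p = 0.00245) and Aqp1 of the potassium and water list (-2.07, adjusted p = 0.00395).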

How the data were processed

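RNA of sorted eGFP-positive cells was made into 12 libraries with SMARTer Ultra Low and Nextera kits. Per the labels, the submitters' notes name TopHat2 2.0.9, HTSeq 0.5.4p3 and edgeR 3.3.6 with mm10 and GRCm38. The authors deposited 1 table of normalized counts, a signal of gene counts divided by 1 factor per library. All values were whole reads once the step of each library was known (100% within 1e-06), which allowed count tests as alternatives. Whether counting used strand is not given in the sources used here, and exons of Aldh1l1, Slc1a2, Glul and Fgfr3 overlap genes outside the table. No column of other samples was in the table (0 unmapped columns).

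Here limma 3.58.1 (R 4.3.3, limma-trend, 5 group means) was fitted to log2(normalized count + 1), tested where any group averaged 0.5 or more. FT 1 week had 1 library, so its spread was borrowed. Positions and lengths came from GENCODE M21 (GRCm38). Alternatives were edgeR 4.0.16 (quasi-likelihood and likelihood ratio), DESeq2 1.42.0, other pseudocounts, filters and scalings, array weights, subsets of libraries and a replicate block. Replicates are as labelled, and p-values measure the spread between these libraries. The 10 members were all named, with some of the called genes of the companion lists, up to 4 in a list, and the 8 genes most alike. Called genes of the neuron, microglia, oligodendrocyte progenitor, endothelial and ependymal lists were not named. Members and lists were chosen with earlier results of these data known. A further gene of the oligodendrocyte list is not reported here and was left out of its sums. The test was checked on simulated data in which every gene had the same dispersion. Such data lack the wide replicate spread of the members, so the check does not cover it.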

Additional observations from a re-analysis of the deposited data

How the results depend on the processing

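No member was called under any alternative but 1. With only the compared groups, 7 members were called higher at 2 weeks than at 1 week after FT, beside 5.06% of all genes. In the other comparisons such fits called 0 members, beside 0% to 0.293% of all genes. Leaving out each library in turn gave 0 to 0 members called in each of the 10 comparisons. The edgeR quasi-likelihood test called 0 members, beside 0% to 0.427% of all genes over the comparisons. DESeq2 also called 0 members, beside 0% to 3.31%. At an unadjusted p under 0.05 the quasi-likelihood test had 0 members in each comparison, beside 1.81% to 15.1% of all genes. At that threshold DESeq2 had 2 in FT 1 week against NI (11.7% of all genes) and 3 in FT 1 week against HS 1 week (6.32%). It had 3 in FT 2 weeks against FT 1 week (9.57%) and 3 for the difference of time effects (7.82%). The other comparisons had 0 by DESeq2, beside 2.09% to 15.3%. An alternative chosen after seeing the data left out the 5 libraries with the highest microglial sums. It kept only NI replicate 1 and HS 2 weeks replicate 2 of their groups, and no FT 1 week library. Every comparison that could still be made used NI or HS 2 weeks. Calls by limma or the likelihood ratio test there cannot decide whether members changed. A replicate block, without the FT 1 week library, called 0 members. Deviations of same-numbered libraries correlated at -0.478 to 0.718 over 15 pairs. Differently numbered libraries also reached -0.725 and 0.667, so these correlations cannot decide whether the numbers pair the libraries. Of 197 values of single genes under other settings, 3 reversed: scaling to equal totals gave -0.06 for Kcnj10 and -0.11 for Glul in the injured mean, and array weights gave -0.22 for Glul. Leaving out libraries gave -0.02 to 0.27 for Kcnj10 and -0.28 to 0.31 for Glul. Scaling to equal totals lowered the median log2 fold change of all genes against NI by 0.12 to 0.25, in each injured group. The cause of these changes was not tested. The lowest member value, Slc6a11 in HS 1 week replicate 3, rested on 50 reads.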

Other observations

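The sum of the reactive astrocyte genes was higher in most injured libraries than in NI. Within HS 1 week and within HS 2 weeks this sum was lowest in the library where the homeostatic genes were low. The FT 1 week library, also low in the homeostatic genes, had a sum near that of FT 2 weeks replicate 1 (2306 against 2476). The 13 reactive genes, Gfap, Vim and Serpina3n among them, summed to 3590, 3583 and 912.7 normalized counts in HS 1 week, 1228 and 2920 in HS 2 weeks, 2306 in the FT 1 week library and 2476, 3157 and 3049 in FT 2 weeks, against 1009, 693.5 and 718.1 in NI. HS 1 week replicate 3 was inside the NI range and every other injured library was above it. Gfap and Serpina3n made up most of the sum in each injured library, but not in NI. What was left of the sum without them was below NI in the HS and FT 1 week libraries, though not in FT 2 weeks. Of the 13 genes, 1 had the same 4 lowest libraries as the homeostatic genes (7.69%, beside 3.55% of all genes). Gfap, the intermediate filament of reactive astrocytes, had its 3 lowest injured values at 101.5 in HS 1 week replicate 3, at 131.6 in HS 2 weeks replicate 1 and at 304.1 in the FT 1 week library, while the other injured libraries had 677 to 1631, and its lowest NI value in NI replicate 3 (33.25). Serpina3n, a secreted protease inhibitor, was lowest among injured libraries in HS 1 week replicate 3 (407.8) and HS 2 weeks replicate 1 (779.6), but had 1666 in the FT 1 week library.

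By limma, Serpina3n alone of the 13 was called, in the injured mean (0.293% of all genes called) with a log2 fold change of 4.56 ± 0.54 (SE, adjusted p = 0.00862), and in FT 1 week (0.452%) with 5.08 ± 0.90 (adjusted p = 0.0399). The first call was lost without NI replicate 2 (4.35, adjusted p = 0.064) or NI replicate 3 (4.08, adjusted p = 0.0643). The second was lost without HS 1 week replicate 1, any FT 2 weeks library, NI replicate 2 or NI replicate 3 (adjusted p up to 0.123) and with only the compared groups (0.278). The edgeR likelihood ratio test called Serpina3n higher in each injured group. It called Gfap higher in HS 1 week and FT 2 weeks and Cxcl10 higher in HS 1 week and FT 1 week, and it called Lcn2 lower in HS 2 weeks and FT 2 weeks. Of all genes it called 0.372% in HS 1 week, 0.757% in HS 2 weeks, 1.81% in FT 1 week and 2.22% in FT 2 weeks. In the injured mean (4.09% of all genes called) Serpina3n, Gfap and Cxcl10 were called higher and Lcn2 lower. This test was not repeated with each library left out in turn. The list was chosen with earlier results of these data known.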
